A study of Mus musculus with 22 samples.

Results

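The collagen chains are the 44 genes of the count table, out of 23420, whose symbol has the form of a collagen alpha chain. By the structure their protein builds, 11 are fibrillar (types I, II, III, V, XI, XXIV and XXVII), 6 are basement membrane chains (type IV) and 27 are other chains. They were followed in inguinal white adipose tissue (IWAT) of 11 female C57Bl/6 wildtype mice, 5 lean mice on regular chow and 6 mice made obese by 16 weeks of high fat diet (HFD). At about 20 weeks of age each mouse was injected in the left pad with E0771 cells, 1 breast cancer line of C57Bl/6 origin, in PBS with Matrigel (tumor-associated IWAT) and in the right pad with PBS and Matrigel alone (control IWAT). Both pads were taken 2 weeks later, which gave 5 lean control, 5 lean tumor-associated, 6 obese control and 6 obese tumor-associated libraries. No group went without Matrigel, a basement membrane extract. None of the libraries was made from tumor tissue. The inguinal lymph node, the sheet of fat that covered the tumor and the outermost fat were cut away by the authors. An IWAT library is a whole-tissue library, in which fewer cells of a type and less RNA per cell cannot be told apart.

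A collagen is a triple helix of 3 alpha chains, each a separate gene. The fibrillar types I, III and V copolymerise into the fibrils that carry the tension of connective tissue, and fibroblasts are their main source. Type IV chains assemble into the sheet of every basement membrane, around adipocytes and vessels and under epithelium: the products of Col4a1 and Col4a2 are found in nearly all of them, and those of Col4a3 to Col4a6 in fewer. Type VI forms beaded filaments around fat cells, the FACIT types (IX, XII, XIV and others) sit on the surface of fibrils, types XV and XVIII lie at the basement membrane zone and carry sugar chains, type VIII forms short-chain networks in vessel walls and scars, and types XIII, XVII, XXIII and XXV span the plasma membrane. Adipose tissue is wrapped in collagen that has to be remodelled when fat cells grow or when a tumor expands in the pad.

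Reads per gene were counted by the authors, and 5759775 to 8598108 counts per library lay on genes. edgeR's filter on low counts kept 14458 genes, among them 38 of the 44 chains: 9 fibrillar, 6 basement membrane and 23 other. Levels are CPM, read counts scaled by the TMM-normalized library total. A chain was called higher or lower at an adjusted p under 0.05 in edgeR's quasi-likelihood test, adjusted over all genes tested, and every adjusted p without another name comes from that fit. Markers of all cell types listed for the tissue were read in every library. The summed level of 8 adipocyte markers was 11600 to 15300 CPM in lean control and 13300 to 23600 CPM in obese control IWAT. In lean tumor-associated IWAT it was 7535.5 to 13117.2 CPM, below every lean control library in 4 of 5, though none of the 8 was called there. In obese tumor-associated IWAT it was 1864 CPM in mouse 4 and 3156 CPM in mouse 0, below the 7202 to 11766 CPM of the other 4 mice, and mouse 4 also had the lowest sums of 10 fibroblast markers (897 CPM), 8 endothelial markers (303 CPM) and 6 mural cell markers (88.1 CPM) of all libraries. The summed level of 5 proliferation markers was the highest of all libraries in mouse 4 (1546.4 CPM) and the next highest in mouse 0 (1172.5 CPM). It was 466.1 to 805.4 CPM in the other 4 obese tumor-associated pads. The part of tumor cells, if any, in these levels was not tested. These 2 libraries stand apart from the rest of their group. So does the control pad of obese mouse 1, with a skeletal muscle marker sum of 2246 CPM and the lowest Col1a1, Col3a1 and Col4a1 of the obese control pads.

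The chains together took 0.933% to 1.3% of the gene counts in lean control IWAT and 1.82% to 2.6% in lean tumor-associated IWAT, ranges that did not overlap. In obese mice they took 0.93% to 1.88% in control and 1.28% to 3.06% in tumor-associated IWAT. The fibrillar chains accounted for most of this: 0.641% ± 0.102 (SD, n = 5) in lean control, 1.45% ± 0.235 (SD, n = 5) in lean tumor-associated, 0.76% ± 0.186 (SD, n = 6) in obese control and 1.45% ± 0.537 (SD, n = 6) in obese tumor-associated IWAT. The type IV chains ran differently. Their share was 0.215% ± 0.0154 (SD, n = 5) in lean control, 0.257% ± 0.0389 (SD, n = 5) in lean tumor-associated, 0.36% ± 0.0789 (SD, n = 6) in obese control and 0.272% ± 0.0916 (SD, n = 6) in obese tumor-associated IWAT, so that the highest mean was that of the obese control pads. The other chains took 0.265% ± 0.0383 (SD, n = 5), 0.398% ± 0.048 (SD, n = 5), 0.339% ± 0.0597 (SD, n = 6) and 0.582% ± 0.122 (SD, n = 6) in the same order of groups.

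**Figure D1:**
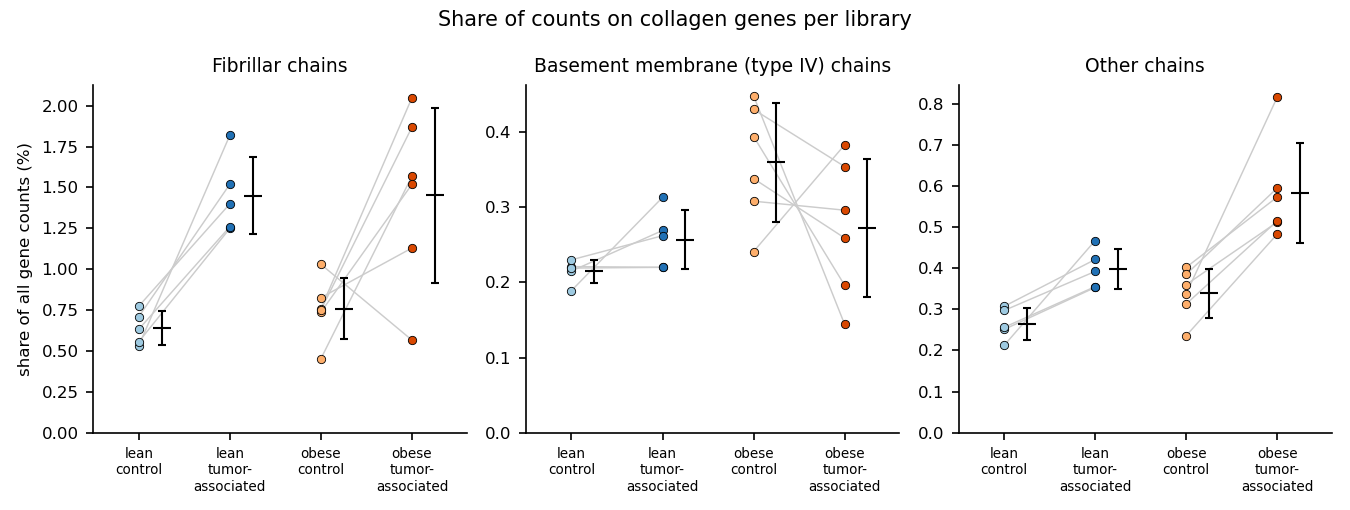
Share of all gene counts (%) on fibrillar, basement membrane and other collagen chains in each library; grey lines join the pads of a mouse, and the bar beside the points is the mean with its SD. The lean tumor-associated libraries lie above all lean control libraries for the fibrillar and the other chains, while the type IV share has its highest mean, 0.36%, in the obese control pads.

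Per kilobase of exon, Col3a1 was the most abundant chain in all 4 groups, at 364 ± 54.7 CPM per kb (SD, n = 5) in lean control and 877 ± 162 CPM per kb (SD, n = 5) in lean tumor-associated IWAT. Col4a1 ranked second in both control groups, at 175 ± 18 CPM per kb in lean and 287 ± 71.8 CPM per kb in obese mice, ahead of Col1a1 at 112 ± 23.4 and 118 ± 35.7 CPM per kb. By this length Col1a1 ranked second in both tumor-associated groups, at 245 ± 34.9 CPM per kb in lean and 273 ± 136 CPM per kb in obese mice, but Col4a1, at 210 ± 35.9 and 230 ± 73 CPM per kb, was within the spread of it in both. The neighbours Col1a1 (112 ± 23.4 CPM per kb) and Col4a2 (111 ± 8.46 CPM per kb) in lean control IWAT did not differ beyond their spread either. The order turned with the length used: per longest transcript Col1a2 ranked second in both tumor-associated groups, at 419 ± 63.5 CPM per kb (SD, n = 5) in lean and 460.0 ± 212 CPM per kb (SD, n = 6) in obese mice, and Col1a1 came next, at 271 ± 38.6 CPM per kb in lean mice, while Col3a1 stayed first in all 4 groups. Type VI was represented by Col6a1, its highest chain per kilobase: Col6a1 stood at 94.3 ± 16.6, 138 ± 21.9, 148 ± 27.5 and 227 ± 31.8 CPM per kb in lean control, lean tumor-associated, obese control and obese tumor-associated IWAT.

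In lean mice, tumor presence went with more collagen RNA, and no chain was called lower. Of the 38 chains tested, 7 were called higher in tumor-associated IWAT, where 3.27% of all genes were: the fibrillar Col1a1, Col1a2, Col3a1, Col5a1 and Col5a2, the beaded filament chain Col6a1 and the FACIT chain Col12a1. None was called lower, against 0.913% of all genes, and at an unadjusted p under 0.05 none was lower either, nor with DESeq2. The median log2 fold change of the 9 fibrillar chains was 0.81, that of the 6 type IV chains 0.15 and that of the 23 other chains 0.24, beside 0.01 over all genes. With the mouse as a block, which uses that both pads came from the same animal, 2 of the 7 calls remained, Col6a1 and Col12a1. The count also depended on single libraries: it was 2 without the control pad of lean mouse 2, 3 or 6 or the tumor-associated pad of lean mouse 0 or 2, 3 without the tumor-associated pad of lean mouse 3 or 9, and 4 without the control pad of obese mouse 0, 2 or 3 or the tumor-associated pad of obese mouse 1 or 2, which share the estimate of the spread.

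In obese mice the chains went both ways. In tumor-associated IWAT 13 were called higher, where 26.8% of all genes were, and 12 lower, where 27.7% of all genes were. The direction followed the class: 6 of 9 fibrillar chains were called higher and none lower (none at an unadjusted p under 0.05 or with DESeq2), and 4 of 6 type IV chains were called lower and none higher, again with none at an unadjusted p under 0.05 or with DESeq2. Without the tumor-associated pad of obese mouse 0 the calls of Col5a1, Col5a2, Col11a1, Col4a2 and Col4a3 were lost (adjusted p = 0.0531 to 0.689). Their log2 fold changes kept their direction. Of the 23 other chains 7 were called higher and 8 lower. The medians were 0.70 for the fibrillar, -0.98 for the type IV and -0.08 for the other chains, with -0.02 over all genes. All 7 chains called higher in lean mice were among the 13 called higher in obese mice. That is 7 of 7 of the lean list and 7 of 13 of the obese list. The 2 comparisons share no library but come from 1 fit with a shared estimate of the spread. How many of all genes called higher in lean mice were also called higher in obese mice was not counted. The obese count stayed at 13 higher and was 11 lower without the tumor-associated pad of mouse 4, and was 10 higher and 10 lower without that of mouse 0.

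**Figure D2:**
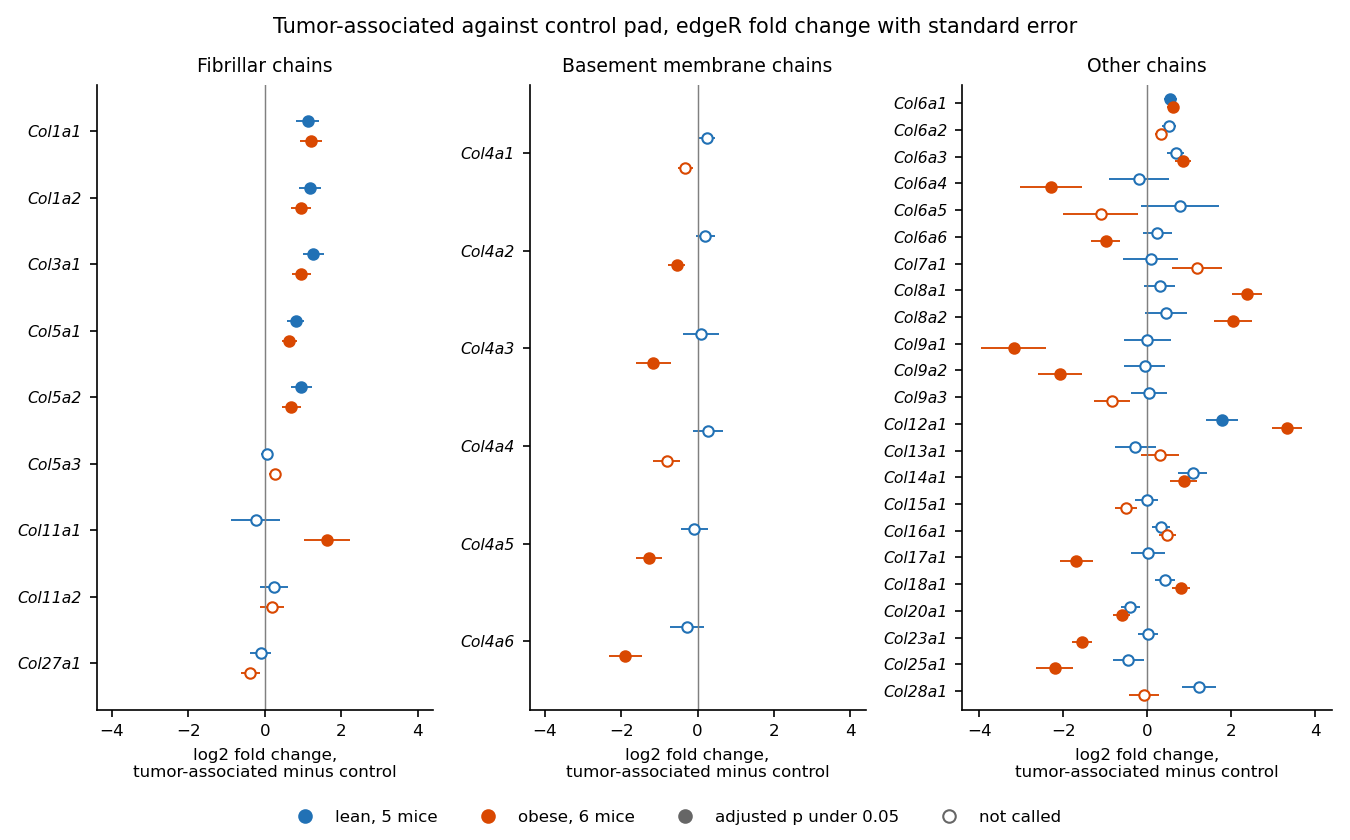
Change from control to tumor-associated IWAT (log2 fold change) for the 38 chains tested, in lean (blue, 5 mice) and obese (orange, 6 mice) animals. Bars are the standard error derived from the F statistic of edgeR. Filled points passed an adjusted p of 0.05. Col1a1, Col1a2, Col3a1, Col5a1 and Col5a2 are filled and to the right of 0 in both diets, and all 6 type IV chains lie to the left of 0 in obese mice.

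Of types I, III and V, whose chains form the common fibril of connective tissue, 5 of the 6 chains rose in both diets, Col5a3 being the exception. Col1a1 encodes the alpha 1 chain of type I, the main fibril collagen. In the lean mice, in the order of mice 0, 2, 3, 6 and 9, Col1a1 stood at 902, 647, 546, 694 and 881 CPM in control and 1813, 1843, 1338, 1635 and 1411 CPM in tumor-associated IWAT, without overlap, a log2 fold change of 1.13 (SE 0.30, adjusted p = 0.0388). In obese mice it ranged over 466 to 1116 CPM (median 768) in control and 595 to 3296 CPM (median 1721) in tumor-associated IWAT, a log2 fold change of 1.21 (SE 0.28, adjusted p = 0.0013). The highest of these 12 libraries was the tumor-associated pad of obese mouse 0 and the lowest tumor-associated pad was that of mouse 4, where Col1a1 was lower than in the control pad of the same mouse; it was higher in the other 5.

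Col1a2, the partner chain of type I, stood in lean mice at 1116, 822, 837, 899 and 1232 CPM in control and 2383, 2736, 1916, 1942 and 2215 CPM in tumor-associated IWAT, again without overlap, a log2 fold change of 1.19 (SE 0.29, adjusted p = 0.0235). In obese mice the range was 777 to 1775 CPM (median 1277) in control and 789.6 to 4142 CPM (median 2484) in tumor-associated IWAT, a log2 fold change of 0.94 (SE 0.26, adjusted p = 0.00542). The count ratio of the type I partners, Col1a1 to Col1a2, was 0.747 ± 0.063 (SD, n = 5), 0.723 ± 0.0806 (SD, n = 5), 0.602 ± 0.0592 (SD, n = 6) and 0.729 ± 0.0753 (SD, n = 6) in lean control, lean tumor-associated, obese control and obese tumor-associated IWAT. Col3a1, the single chain of type III and the most abundant chain of the tissue, stood in lean mice at 3737, 2878, 3171, 3858 and 4208 CPM in control and 8971, 11130, 7427, 7164 and 8328 CPM in tumor-associated IWAT, which did not overlap, a log2 fold change of 1.27 (SE 0.27, adjusted p = 0.00963). In obese mice it ranged over 2156 to 5758 CPM (median 4074) in control and 3092 to 10810 CPM (median 9021) in tumor-associated IWAT, a log2 fold change of 0.96 (SE 0.24, adjusted p = 0.00282). With the mouse as a block, the lean adjusted p was 0.0832 for Col1a1, 0.0637 for Col1a2 and 0.0555 for Col3a1, so that these calls were lost, at log2 fold changes of 1.15, 1.20 and 1.26; in obese mice the same block left them at 0.0131, 0.0371 and 0.0273.

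The start regions of 2 of these chains shared none of the 3 motifs searched. Col1a2 and Col3a1 are shown as 2 of the chains called in both diets. RefSeq's window of 250 bases before to 50 after the start is given on the assembly GRCm38.p6, the sequence of mm10. These letters are in capitals on either strand: CCAAT for the CCAAT box, TATAAA for the box of that name and GGGCGG for the GC box. The Col1a2 window is chr6:4505368-4505667 on the plus strand and that of Col3a1 chr1:45311288-45311587 on the plus strand.
Col1a2: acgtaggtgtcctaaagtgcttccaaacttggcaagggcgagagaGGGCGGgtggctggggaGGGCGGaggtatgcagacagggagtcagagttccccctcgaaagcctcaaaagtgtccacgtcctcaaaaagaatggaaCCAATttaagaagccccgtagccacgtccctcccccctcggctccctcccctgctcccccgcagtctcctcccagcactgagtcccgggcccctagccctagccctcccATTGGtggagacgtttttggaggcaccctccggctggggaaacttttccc
Col3a1: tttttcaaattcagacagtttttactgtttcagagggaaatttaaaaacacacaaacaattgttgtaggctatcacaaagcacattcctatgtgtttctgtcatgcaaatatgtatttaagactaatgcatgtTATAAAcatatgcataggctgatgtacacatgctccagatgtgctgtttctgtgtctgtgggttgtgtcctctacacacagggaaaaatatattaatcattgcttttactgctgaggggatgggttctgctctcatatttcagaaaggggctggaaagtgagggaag
Col1a2 held CCAAT on either strand and GGGCGG, and Col3a1 only TATAAA. Of the other chains called in both diets, Col5a1 held GGGCGG, as Col1a2 did, and Col6a1 held none of the 3 motifs. Col1a1, Col5a2 and Col12a1 had no window. Of the 44 chains, 35 had a window in the RefSeq table; CCAAT was in 13 (37.1%), TATAAA in 5 (14.3%) and GGGCGG in 22 (62.9%), against 41.1%, 15.7% and 38.2% of the 27025 genes with a window. These are matches of letters, which describe the windows and do not show that a factor binds there.

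Type V chains start the fibril and limit its width. Col5a1 stood in lean mice at 429, 291, 387, 316 and 369 CPM in control and 664, 724, 663, 529.5 and 562 CPM in tumor-associated IWAT, without overlap, a log2 fold change of 0.81 (SE 0.22, adjusted p = 0.0433), and ranged in obese mice over 311 to 569.7 CPM (median 455) in control and 368 to 1163 CPM (median 643) in tumor-associated IWAT, a log2 fold change of 0.64 (SE 0.20, adjusted p = 0.0117). Col5a2 stood in lean mice at 450.0, 374, 413, 478 and 498 CPM in control and 904, 1027, 740.4, 793 and 838 CPM in tumor-associated IWAT, also without overlap, a log2 fold change of 0.96 (SE 0.27, adjusted p = 0.0472), and ranged in obese mice over 384 to 834 CPM (median 635) in control and 339 to 1469 CPM (median 1019) in tumor-associated IWAT, a log2 fold change of 0.70 (SE 0.24, adjusted p = 0.0208). These calls also depended on the fit. With the mouse as a block the adjusted p was 0.0556 for Col5a1 and 0.101 for Col5a2 in lean mice and 0.0797 for Col5a2 in obese mice. Without the tumor-associated pad of obese mouse 0 the obese log2 fold changes were 0.44 for Col5a1 (adjusted p = 0.0531) and 0.55 for Col5a2 (adjusted p = 0.071). The remaining type V chain, Col5a3, was not called in either diet: its log2 fold change was 0.06 (SE 0.16, adjusted p = 0.97) in lean and 0.27 (SE 0.15, adjusted p = 0.13) in obese mice, at 416 ± 62.3 CPM (SD, n = 5) in lean control IWAT.

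None of the fibrillar chains of types I, III and V was called between diets. In control IWAT none of the 9 fibrillar chains passed in either direction, with none higher and 1 lower at an unadjusted p under 0.05 and none with DESeq2. The log2 difference of obese and lean control IWAT was 0.08 (SE 0.29, adjusted p = 0.888) for Col1a1, 0.38 (SE 0.28, adjusted p = 0.374) for Col1a2 and 0.18 (SE 0.25, adjusted p = 0.679) for Col3a1. The obese minus the lean tumor change was 0.08 (SE 0.41, adjusted p = 0.907) for Col1a1 and -0.31 (SE 0.36, adjusted p = 0.56) for Col3a1, differences whose standard errors leave room for a change in either direction.

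The minor fibrillar chains behaved otherwise. Col11a1, which in cartilage nucleates fibrils, stood in lean mice at 6.97, 9.45, 6.58, 11.1 and 5.76 CPM in control and 6.06, 6.53, 5.57, 10.2 and 5.25 CPM in tumor-associated IWAT and ranged in obese mice over 1.86 to 6.45 CPM (median 2.74) in control and 1.94 to 43.6 CPM (median 3.72) in tumor-associated IWAT. It was called higher in obese tumor-associated IWAT, with a log2 fold change of 1.63 (SE 0.61, adjusted p = 0.0306), in groups that overlapped, but the call rests on 1 library: in the tumor-associated pad of obese mouse 0 Col11a1 stood at 43.6 CPM, and without that library the log2 fold change was 0.19 (adjusted p = 0.689). The block by mouse gave an adjusted p of 0.162. Col27a1, a fibrillar chain of cartilage and other tissues, was in lean mice at 19.6, 23.8, 22.2, 30.4 and 26.8 CPM in control and 25.4, 19.6, 18.8, 29.1 and 21 CPM in tumor-associated IWAT and in obese mice over 13.9 to 19.1 CPM (median 15.1) in control and 3.79 to 18.1 CPM (median 12.5) in tumor-associated IWAT. Among the tumor-associated pads it was lower in obese mice, a log2 difference of -0.92 (SE 0.26, adjusted p = 0.00623) with no overlap of the groups, and not called in control IWAT at -0.65 (SE 0.26, adjusted p = 0.0841), where the groups did not overlap either. Col11a2 was not called in any comparison, at group means between 1.67 and 2.51 CPM. Col2a1 and Col24a1 did not pass the filter: Col2a1 had 0 to 3 counts in each of the 16 libraries outside obese tumor-associated IWAT and 10, 1, 22, 5, 32 and 3 counts in the tumor-associated pads of obese mice 0, 1, 2, 3, 4 and 8. Col24a1 had 0 to 9 counts in those 16 libraries and 31, 10, 5, 6, 10 and 11 counts in the obese tumor-associated pads, where mouse 0 again had the most.

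**Figure D3:**
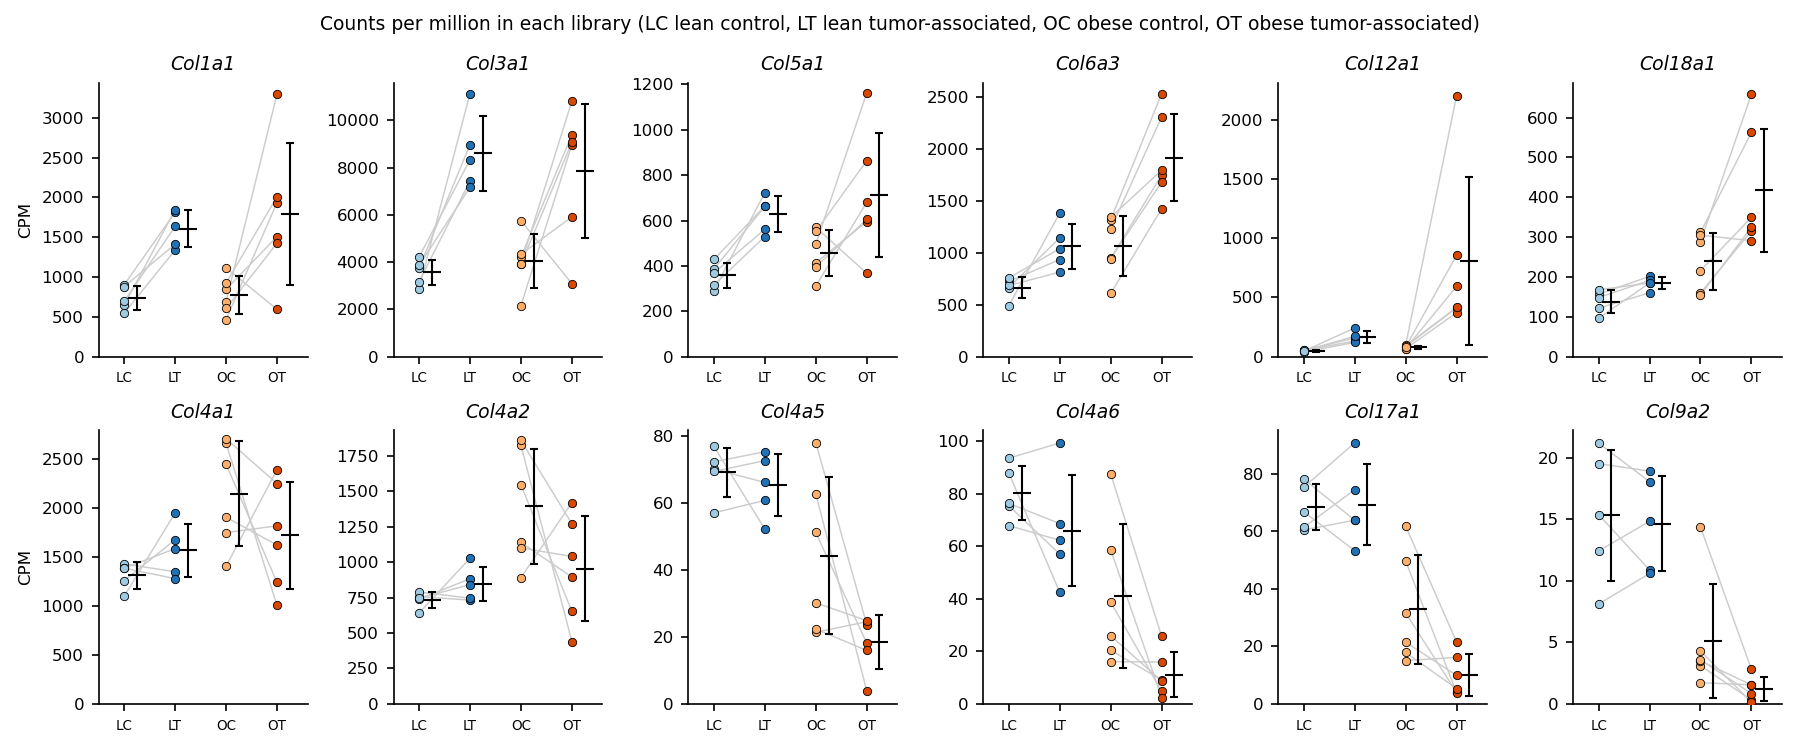
CPM of 12 chains in each library, with grey lines joining the pads of a mouse and bars for the mean and SD of a group (5 lean and 6 obese mice). Col1a1, Col3a1 and Col5a1 rise from control to tumor-associated IWAT in both diets except in obese mouse 4, Col4a1 and Col4a2 have their highest means in obese control IWAT, and Col4a5, Col4a6, Col17a1 and Col9a2 are lowest in obese tumor-associated IWAT.

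Of the basement membrane chains, Col4a1 and Col4a2 were higher in obese than in lean control IWAT. Their products join in 1 trimer, the common network of adipose and vascular basement membranes. Col4a1 stood in lean mice at 1256, 1097, 1427, 1383 and 1383 CPM in control and 1673, 1945, 1347, 1277 and 1582 CPM in tumor-associated IWAT, and ranged in obese mice over 1402 to 2704 CPM (median 2173) in control and 1004 to 2387 CPM (median 1718) in tumor-associated IWAT. The log2 difference of obese and lean control IWAT was 0.71 (SE 0.21, adjusted p = 0.0226), with overlap between the lowest obese and the highest lean libraries. Col4a2 stood in lean mice at 739.8, 640.0, 757, 789 and 745 CPM in control and 882, 1027, 732, 746 and 842 CPM in tumor-associated IWAT, and ranged in obese mice over 891 to 1859 CPM (median 1342) in control and 439.7 to 1419 CPM (median 968) in tumor-associated IWAT; its diet difference in control IWAT was 0.92 (SE 0.24, adjusted p = 0.0119), without overlap. The Col4a1 call was lost on leaving out the control pad of lean mouse 0 or 2 or of obese mouse 8, with adjusted p up to 0.0628 over all fits without a library or a mouse, whereas the Col4a2 call was kept in all 33 such fits.

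Neither chain was called higher with a tumor. In lean mice the log2 fold change was 0.26 (SE 0.21, adjusted p = 0.693) for Col4a1 and 0.20 (SE 0.25, adjusted p = 0.854) for Col4a2. In obese mice it was -0.32 (SE 0.20, adjusted p = 0.172) for Col4a1, higher in 2 of 6 mice, and -0.55 (SE 0.23, adjusted p = 0.0451) for Col4a2, higher in 1 of 6 mice. The Col4a2 call was not firm: it was lost in 21 of the 33 fits without a library or a mouse, among them those without the tumor-associated pad of obese mouse 0 (adjusted p = 0.0987) or 4 (adjusted p = 0.0784), and with the mouse as a block (adjusted p = 0.0894). Of the 8 endothelial markers 6 were called lower and none higher in obese tumor-associated against control IWAT, 75% beside 27.7% of all genes. The 8 summed to 303.2 to 1280.7 CPM in obese tumor-associated and to 1017.4 to 1462.2 CPM in obese control IWAT. Of the 8 adipocyte markers 7 were called lower as well, 87.5% beside the same share of all genes. The part of these cells in the type IV levels was not tested. Between the tumor-associated groups the chains did not pass, at 0.13 (SE 0.21, adjusted p = 0.608) for Col4a1 and 0.17 (SE 0.24, adjusted p = 0.568) for Col4a2.

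Col4a1 and Col4a2 lie head to head on chromosome 8, with RefSeq starts 21 bases apart, and share the region from which both are read. The Col4a1 window is chr8:11312777-11313076 on the minus strand and the Col4a2 window chr8:11312555-11312854 on the plus strand (RefSeq, GRCm38.p6). They are shown because these neighbours moved together, and the 78 bases in both windows are in capitals.
Col4a1: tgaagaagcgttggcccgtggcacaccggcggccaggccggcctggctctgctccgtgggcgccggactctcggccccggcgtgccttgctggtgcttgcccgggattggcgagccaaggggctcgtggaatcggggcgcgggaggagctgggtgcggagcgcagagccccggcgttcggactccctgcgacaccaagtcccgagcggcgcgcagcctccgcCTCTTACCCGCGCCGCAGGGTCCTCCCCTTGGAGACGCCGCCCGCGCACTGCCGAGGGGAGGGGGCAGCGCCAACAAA
Col4a2: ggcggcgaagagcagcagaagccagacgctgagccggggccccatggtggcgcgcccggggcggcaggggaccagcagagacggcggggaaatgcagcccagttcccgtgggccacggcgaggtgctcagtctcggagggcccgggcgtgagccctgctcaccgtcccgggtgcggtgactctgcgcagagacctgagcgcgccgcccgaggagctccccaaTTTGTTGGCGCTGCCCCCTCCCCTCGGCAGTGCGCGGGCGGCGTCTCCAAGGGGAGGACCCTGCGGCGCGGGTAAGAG
The exons of this pair also overlap on opposite strands in the annotation GENCODE M21, and whether the authors' counting used strand is not stated, so that reads in the overlap may not have been split. The ratio of Col4a1 to Col4a2 counts was 1.78 ± 0.0854 (SD, n = 5) in lean control, 1.84 ± 0.0783 (SD, n = 5) in lean tumor-associated, 1.55 ± 0.0841 (SD, n = 6) in obese control and 1.86 ± 0.216 (SD, n = 6) in obese tumor-associated IWAT. Over the obese control pads it ran from 1.45 to 1.67, below the 1.7 to 1.89 of lean control IWAT. The other type IV genes are paired in the same way, with GENCODE gene starts 72 bases apart for Col4a3 and Col4a4 on chromosome 1 and 1309 bases apart for Col4a5 and Col4a6 on chromosome X.

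Of the chains of the more restricted type IV networks, Col4a3, Col4a5 and Col4a6 fell in obese mice with tumors. Col4a5 and Col4a6 are partners in basement membranes under epithelium. Col4a5 stood in lean mice at 70.2, 77, 57.1, 69.5 and 72.4 CPM in control and 66.2, 52.2, 60.9, 72.7 and 75.4 CPM in tumor-associated IWAT, and ranged in obese mice over 21.4 to 78.1 CPM (median 40.7) in control and 3.92 to 24.9 CPM (median 20.9) in tumor-associated IWAT. Its log2 fold change with tumor presence was -1.26 (SE 0.34, adjusted p = 0.00398) in obese mice and -0.08 (SE 0.35, adjusted p = 0.986) in lean mice, and obese tumor-associated IWAT lay below lean tumor-associated IWAT without overlap, at -1.82 (SE 0.35, adjusted p = 0.000367). Col4a6 stood in lean mice at 75.4, 87.8, 67.8, 93.5 and 76.3 CPM in control and 57, 42.4, 62.2, 99.2 and 68.6 CPM in tumor-associated IWAT, and ranged in obese mice over 16.1 to 87.5 CPM (median 32.3) in control and 2.44 to 25.7 CPM (median 8.94) in tumor-associated IWAT, lower in the tumor-associated pad of 6 of 6 obese mice. Its log2 fold change was -1.89 (SE 0.44, adjusted p = 0.00152) in obese and -0.28 (SE 0.45, adjusted p = 0.919) in lean mice, and the difference of the tumor-associated groups, which did not overlap, was -2.56 (SE 0.46, adjusted p = 0.000207). All these obese calls of Col4a5 and Col4a6 held in every fit without a library or a mouse.

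Col4a3 and Col4a4, which join Col4a5 in other basement membranes such as that of the kidney filter, were rare in IWAT. Col4a3 stood in lean mice at 3.25, 2.45, 3.83, 2.82 and 3.73 CPM in control and 3.79, 3.11, 4.08, 1.8 and 4.48 CPM in tumor-associated IWAT, and ranged in obese mice over 1.44 to 3.92 CPM (median 2.55) in control and 0 to 2.72 CPM (median 1.07) in tumor-associated IWAT. It was called lower in obese tumor-associated IWAT, against obese control at -1.16 (SE 0.46, adjusted p = 0.0383) and against lean tumor-associated IWAT at -1.59 (SE 0.47, adjusted p = 0.00917); without the tumor-associated pad of obese mouse 0 the first of these had an adjusted p of 0.0777. Col4a4 was at 3.36 ± 0.965 CPM in control and 1.9 ± 0.93 CPM in tumor-associated pads of obese mice (SD, n = 6 each), and passed only between the tumor-associated groups, at -0.94 (SE 0.37, adjusted p = 0.0441). The obese minus the lean tumor change was below 0 for all 6 type IV chains, with a median of -1.12 beside -0.04 over all genes, but it passed for none: 3 of them had an unadjusted p under 0.05, none passed with DESeq2, and Col4a6 came closest at -1.60 (SE 0.63, adjusted p = 0.0923).

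Markers of mammary epithelium moved with these chains. The 7 markers (Epcam, Krt8, Krt18, Krt19, Krt5, Krt14 and Cdh1) summed to 974 to 1710 CPM in lean control, 951 to 1910 CPM in lean tumor-associated, 392 to 1010 CPM in obese control and 191 to 510 CPM in obese tumor-associated IWAT. Each had a mean above 10 CPM in every group. None was called in lean tumor-associated against control IWAT. In obese tumor-associated against control IWAT 6 were called lower and none higher, 85.7% of the list beside 27.7% of all genes. Between diets 2 were called lower in control IWAT, 28.6% beside 7.53% of all genes. Among the tumor-associated pads all 7 were lower in obese mice, beside 22.4% of all genes. In the control pads of obese mice 0, 1, 2, 3, 4 and 8 the marker sums were 825.7, 392.1, 755.3, 445.4, 1009.4 and 629.3 CPM, and Col4a5 stood at 51.2, 21.4, 78.1, 22.4, 62.8 and 30.2 CPM, lowest in mice 1 and 3 on both counts. The part of the epithelium in the levels of Col4a5 and Col4a6 was not tested.

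**Figure D4:**
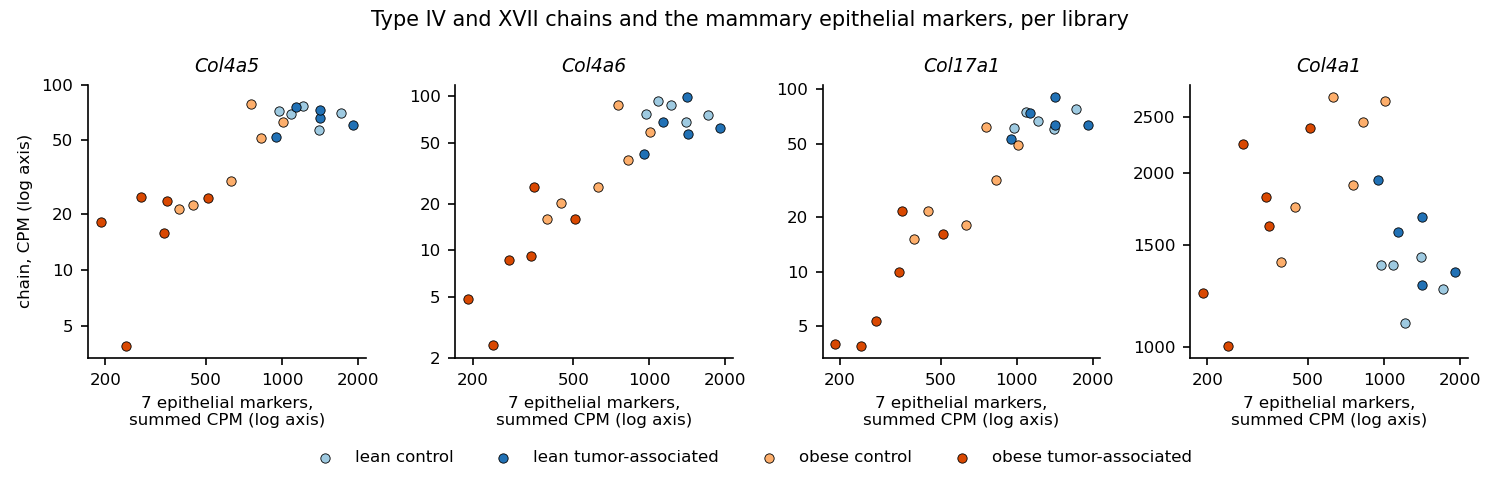
CPM of Col4a5, Col4a6, Col17a1 and Col4a1 in each of the 22 libraries against the summed CPM of 7 mammary epithelial markers, both on log axes. The obese tumor-associated libraries, with marker sums of 191 to 510 CPM, have at most 25.7 CPM of Col4a6 and 21.6 CPM of Col17a1; the lean libraries, with sums above 950 CPM, have at least 42.4 and 53.3 CPM. Col4a1 shows no such order.

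Type VI, which surrounds fat cells with beaded filaments and is built from Col6a1, Col6a2 and 1 more chain, mostly Col6a3, was higher with obesity in all these chains and with a tumor in Col6a1 and, in obese mice, Col6a3. Col6a1 stood in lean mice at 476, 308, 425, 375 and 481 CPM in control and 632, 741, 573, 476 and 603 CPM in tumor-associated IWAT, and ranged in obese mice over 464 to 815 CPM (median 665) in control and 814 to 1159 CPM (median 962) in tumor-associated IWAT. Its log2 fold change with tumor presence was 0.55 (SE 0.16, adjusted p = 0.0475) in lean mice and 0.62 (SE 0.14, adjusted p = 0.0013) in obese mice, higher in 6 of 6 obese mice. Its log2 difference between diets was 0.65 (SE 0.15, adjusted p = 0.00525) in control and 0.72 (SE 0.15, adjusted p = 0.000716) in tumor-associated IWAT, the latter without overlap. The lean tumor call was lost in 25 of the 33 fits without a library or a mouse (adjusted p up to 0.432); the other 3 were kept in all.

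Col6a3 stood in lean mice at 667, 492, 725, 687 and 759 CPM in control and 1146, 1385, 937, 815 and 1042 CPM in tumor-associated IWAT, and ranged in obese mice over 609.9 to 1344 CPM (median 1091) in control and 1427 to 2537 CPM (median 1775) in tumor-associated IWAT, which did not overlap. Its log2 fold change with tumor presence was 0.85 (SE 0.19, adjusted p = 0.000916) in obese mice and 0.68 (SE 0.20, adjusted p = 0.0629) in lean mice, the latter not called although its groups did not overlap. Between diets it was 0.68 (SE 0.20, adjusted p = 0.0206) in control and 0.85 (SE 0.20, adjusted p = 0.00159) in tumor-associated IWAT; the control call was lost without the control pad of lean mouse 2. Col6a2 stood in lean mice at 343, 214, 314, 306 and 339 CPM in control and 479.5, 477, 394, 389 and 442 CPM in tumor-associated IWAT, and ranged in obese mice over 289 to 594 CPM (median 431) in control and 442 to 663 CPM (median 568) in tumor-associated IWAT, and passed only between diets in control IWAT, at 0.57 (SE 0.16, adjusted p = 0.0198), a call lost without the control pad of lean mouse 2. Its tumor changes were 0.52 (SE 0.17, adjusted p = 0.0864) in lean and 0.33 (SE 0.15, adjusted p = 0.0698) in obese mice. The count ratio of Col6a1 to Col6a2 was 1.37 ± 0.0871 (SD, n = 5), 1.38 ± 0.126 (SD, n = 5), 1.47 ± 0.146 (SD, n = 6) and 1.79 ± 0.421 (SD, n = 6) in lean control, lean tumor-associated, obese control and obese tumor-associated IWAT, with the highest value, 2.62, in 1 obese tumor-associated library.

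Col12a1, a FACIT chain that binds along type I fibrils and is known from tissues under tension, had the largest log2 fold change of the 38 tested chains in both diets. It stood in lean mice at 53.3, 45.8, 53, 37.8 and 48 CPM in control and 158, 242, 132, 120.5 and 172 CPM in tumor-associated IWAT, and ranged in obese mice over 66 to 94.7 CPM (median 82.2) in control and 372 to 2203 CPM (median 505) in tumor-associated IWAT. The groups did not overlap in either diet, and it was higher in the tumor-associated pad of all 11 mice. The log2 fold change was 1.79 (SE 0.38, adjusted p = 0.00914) in lean and 3.33 (SE 0.36, adjusted p = 2.14e-06) in obese mice, and obese exceeded lean tumor-associated IWAT by 2.29 (SE 0.37, adjusted p = 8.6e-05), without overlap. In the tumor-associated pad of obese mouse 0 Col12a1 stood at 2203 CPM; without it the obese log2 fold change was 2.71 (adjusted p = 2.93e-07). The lean call was kept with the mouse as a block (adjusted p = 0.00639) and in 32 of 33 fits without a library or a mouse, the exception being lean mouse 2 without both pads (adjusted p = 0.109). The obese minus the lean tumor change of Col12a1, 1.54 (SE 0.50, adjusted p = 0.0614), did not pass. Col14a1, the related chain of relaxed connective tissue, stood in lean mice at 338, 237, 245, 195 and 283 CPM in control and 602, 636, 529.8, 486 and 498 CPM in tumor-associated IWAT, without overlap, a log2 fold change of 1.08 (SE 0.35, adjusted p = 0.0898) that did not pass. It ranged in obese mice over 150.4 to 217 CPM (median 191) in control and 47.4 to 537 CPM (median 375) in tumor-associated IWAT, a log2 fold change of 0.87 (SE 0.32, adjusted p = 0.0254), which was lost with the mouse as a block (adjusted p = 0.151). In the tumor-associated pad of obese mouse 4 it was at 47.4 CPM, below every control library.

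Of the types at the basement membrane zone, Col18a1, whose end is released as endostatin, stood in lean mice at 157, 96.6, 122, 148 and 168 CPM in control and 202, 185, 160.3, 191 and 185 CPM in tumor-associated IWAT, and ranged in obese mice over 155 to 312 CPM (median 252) in control and 291 to 659 CPM (median 338) in tumor-associated IWAT. It rose with a tumor in obese mice, at 0.80 (SE 0.22, adjusted p = 0.0042), and with obesity in control IWAT, at 0.79 (SE 0.23, adjusted p = 0.0218), and in tumor-associated IWAT without overlap, at 1.18 (SE 0.23, adjusted p = 0.000441); the lean tumor change was 0.42 (SE 0.24, adjusted p = 0.43). The control call was lost without the control pad of lean mouse 2 or 3. The obese minus the lean tumor change of Col18a1, 0.39 (SE 0.32, adjusted p = 0.402), did not pass. Col15a1, of the same type of protein, passed in no comparison: it stood in lean mice at 576, 360.3, 435, 514 and 458 CPM in control and 526, 510.1, 419, 465 and 416 CPM in tumor-associated IWAT, ranged in obese mice over 309 to 672 CPM (median 411) in control and 113 to 501 CPM (median 339) in tumor-associated IWAT, and changed with a tumor by -0.50 (SE 0.26, adjusted p = 0.108) in obese mice. With both counted as basement membrane chains, 1 of that class was called higher in obese tumor-associated against control IWAT instead of none.

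Between diets in control IWAT, 8 chains were called higher in obese mice, where 9.54% of all genes were, and 5 lower, where 7.53% of all genes were. The 8 were Col4a1, Col4a2, Col6a1, Col6a2, Col6a3, Col18a1, Col23a1 and Col28a1, and the 5 were Col6a6, Col8a1, Col9a2, Col20a1 and Col25a1. With upper-quartile normalization the share of higher among all called genes in this comparison was 42.5% in place of 55.9%, and 6 chains were called higher and 5 lower. The 8 fell to 5 without the control pad of lean mouse 0 and to 2 without that of lean mouse 2. The 5 became 3 without the control pad of lean mouse 6 or 9 or of obese mouse 0, 1, 3 or 8, and 8 without the control pad of obese mouse 2 or the tumor-associated pad of obese mouse 4. Between tumor-associated groups 5 chains were called higher in obese mice, where 24.7% of all genes were, namely Col6a1, Col6a3, Col8a2, Col12a1 and Col18a1, and 14 lower, where 22.4% of all genes were. Of the fibrillar chains only Col27a1 was among the 14, and none was called higher or had an unadjusted p under 0.05 in that direction, while DESeq2 called 2 higher. The 4 type IV chains Col4a3 to Col4a6 and 9 other chains made up the rest of the 14, with medians of 0.18 for the fibrillar, -1.27 for the type IV and -0.53 for the other chains, beside 0.03 over all genes. In control IWAT these medians were 0.18, -0.11 and -0.46, beside 0.04 over all genes. Comparisons that hold obese tumor-associated IWAT share its 6 libraries, and those that hold obese control IWAT share its 6 libraries as well. With the mouse as a random term in limma voom, 8 chains were called lower in control IWAT.

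The tumor change itself differed between the diets for 2 chains, Col8a1 and Col23a1, 1 higher and 1 lower, beside 2.58% of all genes higher and 2.34% lower. These counts were unstable: 18 of the 22 libraries, left out singly, moved the higher count by over 1.5 times and 14 the lower count, mostly to 0. Without the tumor-associated pad of obese mouse 1 they were 3 and 7. Blocked by mouse, 2 chains were lower, and 3 in limma voom. Col8a1, a chain of the short-chain network of vessel walls, stood in lean mice at 111, 73.8, 40.7, 46.1 and 81 CPM in control and 106, 86.3, 49, 74.7 and 119 CPM in tumor-associated IWAT, and ranged in obese mice over 21 to 36.4 CPM (median 25) in control and 55.6 to 315 CPM (median 99) in tumor-associated IWAT, without overlap. In control IWAT obese mice lay below lean mice, at -1.44 (SE 0.36, adjusted p = 0.00957), and the tumor-associated pad was above the control pad in 6 of 6 obese mice, by 1.21 to 3.88 on the log2 CPM scale. In lean mice the change of each mouse was -0.06 to 0.69, and the log2 fold change was 0.30 (SE 0.37, adjusted p = 0.857) in lean against 2.37 (SE 0.36, adjusted p = 4.07e-05) in obese mice. The obese minus the lean tumor change was 2.07 (SE 0.51, adjusted p = 0.0416). Between the tumor-associated groups Col8a1 did not pass, at 0.63 (SE 0.36, adjusted p = 0.151). Its partner Col8a2 was at 2.99 ± 0.721 CPM, 4.11 ± 1.22 CPM, 2.67 ± 1.02 CPM and 11.1 ± 11.8 CPM (SD, n = 5, 5, 6 and 6) in lean control, lean tumor-associated, obese control and obese tumor-associated IWAT, a log2 fold change of 2.05 (SE 0.45, adjusted p = 0.000877) in obese mice. The tumor-associated pad of obese mouse 0 held 35 CPM of Col8a2 and the other 5 held 3.61 to 8.02 CPM, a mean of 6.32 ± 2.05 CPM (SD, n = 5), and without it the log2 fold change was 1.23 (adjusted p = 0.00196).

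Col23a1, a chain that spans the plasma membrane, went the other way. It stood in lean mice at 5.46, 4.2, 7.04, 6.86 and 7.12 CPM in control and 5.45, 9.02, 5.03, 4.76 and 6.8 CPM in tumor-associated IWAT, and ranged in obese mice over 5.95 to 12.5 CPM (median 10.9) in control and 2.08 to 5.03 CPM (median 3.42) in tumor-associated IWAT, without overlap and lower in the tumor-associated pad of 6 of 6 obese mice, with changes of -2.22 to -0.83 on the log2 CPM scale. The log2 fold change was -1.55 (SE 0.23, adjusted p = 3.25e-05) in obese and 0.02 (SE 0.24, adjusted p = 0.996) in lean mice, where the pads of a mouse differed by -0.50 to 1.05, and the difference of these changes was -1.56 (SE 0.33, adjusted p = 0.0373). In control IWAT it was higher in obese mice, at 0.72 (SE 0.23, adjusted p = 0.0384), a call lost in 18 of the 33 fits without a library or a mouse, and in tumor-associated IWAT lower, at -0.84 (SE 0.24, adjusted p = 0.00606). With the mouse as a block the difference of the tumor changes kept its call for Col8a1 (1.80, adjusted p = 0.0357) and Col23a1 (-1.54, adjusted p = 0.0411), but it was lost in 22 of the 33 fits without a library or a mouse for Col8a1 (adjusted p up to 0.118) and in 18 of 33 for Col23a1 (adjusted p up to 0.118). In lean control IWAT the smallest count of Col23a1 was 24, and in obese tumor-associated IWAT 13, so that its levels carry a wide counting error.

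The start regions of both chains, shown since their tumor change differed between the diets, held GC boxes and neither CCAAT nor TATAAA. They are chr16:57754688-57754987 on the minus strand for Col8a1 and chr11:51289670-51289969 on the plus strand for Col23a1 (RefSeq, GRCm38.p6), with GGGCGG on either strand in capitals.
Col8a1: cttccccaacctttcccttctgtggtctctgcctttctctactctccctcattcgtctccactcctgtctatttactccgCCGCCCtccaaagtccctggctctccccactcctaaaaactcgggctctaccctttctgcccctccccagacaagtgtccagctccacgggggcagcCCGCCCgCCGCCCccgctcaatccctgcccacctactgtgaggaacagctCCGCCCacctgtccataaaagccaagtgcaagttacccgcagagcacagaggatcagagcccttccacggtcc
Col23a1: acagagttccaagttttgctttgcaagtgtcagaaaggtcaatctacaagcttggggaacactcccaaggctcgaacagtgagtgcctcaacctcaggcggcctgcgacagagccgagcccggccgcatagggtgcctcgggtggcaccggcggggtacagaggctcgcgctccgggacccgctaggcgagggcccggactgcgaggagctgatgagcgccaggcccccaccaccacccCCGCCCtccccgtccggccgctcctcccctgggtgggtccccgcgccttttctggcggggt

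**Figure D5:**
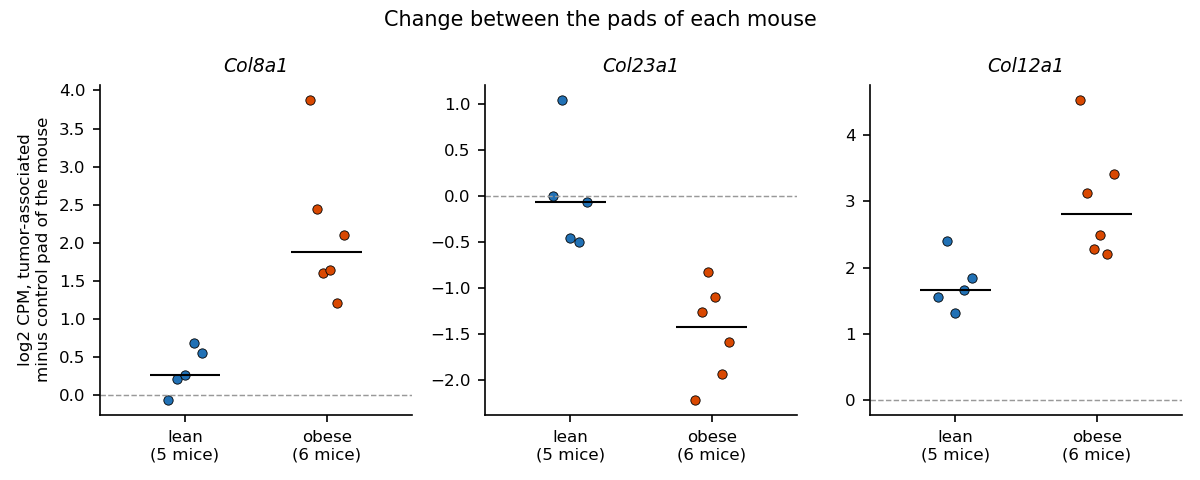
Tumor-associated minus control pad of each mouse on the log2 CPM scale for Col8a1, Col23a1 and Col12a1; points are mice and the line is the median. For Col8a1 the 6 obese mice lie at 1.21 to 3.88, all above the lean mice at -0.06 to 0.69, for Col23a1 they lie below the lean mice, and for Col12a1 the ranges overlap, with the obese mice at 2.20 to 4.54.

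Col17a1, Col9a2 and Col25a1 were called lower in obese tumor-associated against control IWAT. Col17a1 anchors basal epithelial cells to their basement membrane. It stood in lean mice at 78.2, 66.8, 60.5, 75.3 and 61.4 CPM in control and 63.9, 53.3, 63.9, 90.8 and 74.5 CPM in tumor-associated IWAT, and ranged in obese mice over 15.1 to 61.9 CPM (median 26.6) in control and 3.92 to 21.6 CPM (median 7.64) in tumor-associated IWAT; the log2 fold change with a tumor was -1.69 (SE 0.39, adjusted p = 0.00135) in obese and 0.02 (SE 0.40, adjusted p = 0.996) in lean mice, and obese lay below lean tumor-associated IWAT without overlap, at -2.76 (SE 0.41, adjusted p = 4.1e-05). The obese minus the lean tumor change of Col17a1, -1.71 (SE 0.56, adjusted p = 0.0618), did not pass. Like Col4a6, Col17a1 was highest among the obese control pads in mouse 2, at 61.9 CPM, and in mouse 4, at 49.7 CPM. Col9a2, a chain of the FACIT type IX of cartilage, stood in lean mice at 12.4, 15.4, 8.12, 19.5 and 21.2 CPM in control and 14.8, 10.9, 10.6, 18.9 and 18.1 CPM in tumor-associated IWAT, and ranged in obese mice over 1.72 to 14.4 CPM (median 3.54) in control and 0.135 to 2.8 CPM (median 1.2) in tumor-associated IWAT. Its log2 difference was -2.07 (SE 0.52, adjusted p = 0.00256) with a tumor in obese mice, -1.57 (SE 0.48, adjusted p = 0.0279) between diets in control and -3.58 (SE 0.54, adjusted p = 4.46e-05) in tumor-associated IWAT. The control call was lost in 14 of the 33 fits without a library or a mouse. The control pad of obese mouse 2 held 14.4 CPM of Col9a2 and the other 5 held 1.72 to 4.3 CPM.

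Col25a1, a membrane chain known from neurons, was rare, at 6.62, 3.32, 3.83, 2.82 and 3.56 CPM in control and 2.73, 2.49, 2.44, 2.96 and 4.17 CPM in tumor-associated IWAT in lean mice, and it ranged in obese mice over 0.573 to 2.48 CPM (median 1.23) in control and 0 to 0.561 CPM (median 0.289) in tumor-associated IWAT. Obese tumor-associated libraries held at most 4 counts of it. It was called lower in obese tumor-associated against control IWAT, in obese against lean control IWAT and in obese against lean tumor-associated IWAT, each without overlap and each with the call kept in all fits without a library or a mouse, with log2 differences of -2.20 (SE 0.44, adjusted p = 0.000423), -1.58 (SE 0.36, adjusted p = 0.00533) and -3.33 (SE 0.43, adjusted p = 1.47e-05) that rest on these low counts. Of the other 2 type IX chains, Col9a1 was called lower in both comparisons of obese tumor-associated IWAT and had 0 or 1 count in each of the 6 obese tumor-associated libraries and 4 to 27 in the 10 lean ones, and Col9a3 passed only between the tumor-associated groups, at -1.85 (SE 0.43, adjusted p = 0.00178). The exons of Col9a3 overlap those of Tcfl5 on the opposite strand, whose reads may not have been split from it. Of the 3 further type VI chains, Col6a4 and Col6a6 were called lower in both comparisons of obese tumor-associated IWAT, Col6a6 at -0.99 (SE 0.35, adjusted p = 0.0207) and -2.60 (SE 0.36, adjusted p = 2.33e-05), and Col6a5 in none. In the control pads of obese mice 0, 1, 2, 3, 4 and 8 Col6a4 stood at 0.49, 10.5, 3.97, 15.2, 0.921 and 0.286 CPM. The obese tumor-associated pads held 0.321 to 2.71 CPM, which overlapped, with counts down to 2 in both groups. Col20a1, a FACIT chain, was called lower in 3 comparisons, with differences between -0.61 and -0.85.

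The chains left passed in few or no comparisons. Col28a1 was higher in obese than in lean control IWAT, at 1.25 (SE 0.40, adjusted p = 0.0366), and stood at 10.2, 23.8, 24.2 and 22.9 CPM on average in lean control, lean tumor-associated, obese control and obese tumor-associated IWAT. Col7a1, the anchoring fibril of skin, Col13a1 and Col16a1 passed in none; Col7a1 ran from 7.04 to 127 CPM over the 22 libraries. The 6 chains below the filter were Col2a1, Col10a1, Col19a1, Col22a1, Col24a1 and Col26a1, with group means of at most 1.77 CPM.

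The genes around the chains were read from lists. Of 28 tested genes of collagen maturation, 5 were called higher in lean and 16 in obese tumor-associated against control IWAT, with 0 and 2 lower. These are 17.9% and 57.1% of the list higher, beside 3.27% and 26.8% of all genes. The 5, all higher in obese mice too, were P4ha3, a catalytic subunit of prolyl hydroxylase (lean log2 fold change 2.28, SE 0.52, adjusted p = 0.0167), Ppib (0.39, SE 0.10, adjusted p = 0.024) and Fkbp10 (0.83, SE 0.21, adjusted p = 0.0275), which fold procollagen, Bmp1 (0.70, SE 0.11, adjusted p = 0.00111), which cuts off its C-terminal end, and Pcolce (1.01, SE 0.21, adjusted p = 0.00845), which helps Bmp1. In obese mice Serpinh1, the collagen chaperone, rose by 0.73 (SE 0.18, adjusted p = 0.00201) and P4ha1 by 1.13 (SE 0.14, adjusted p = 6.18e-06), whereas Colgalt2, which adds sugars, changed by -1.06 (SE 0.21, adjusted p = 0.000491) and Pcolce2 by -1.56 (SE 0.32, adjusted p = 0.000618). P4ha1 and Fkbp10 were the 2 maturation genes whose tumor change was called higher in obese than in lean mice, P4ha1 at 0.71 (SE 0.20, adjusted p = 0.0486), and Colgalt2 and Pcolce2 the 2 called lower. These are 7.14% of the list each way, beside 2.58% and 2.34% of all genes. Between diets 6 maturation genes were called higher and 1 lower in control IWAT, 21.4% and 3.57% beside 9.54% and 7.53% of all genes. In tumor-associated IWAT 11 were higher and 2 lower, 39.3% and 7.14% beside 24.7% and 22.4% of all genes.

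Of 14 basement membrane partners, the laminins, nidogens, perlecan and agrin, none was called in either direction in lean mice, while 8 were called lower and none higher in obese tumor-associated against control IWAT, 57.1% of the list beside 27.7% of all genes. The 8 became 6 without the tumor-associated pad of obese mouse 0. Among the 8 were Lama3 and Lamb3, laminin chains known from epithelium, at -1.46 (SE 0.34, adjusted p = 0.00154) and -1.79 (SE 0.41, adjusted p = 0.00134). The epithelial markers given beside Col4a5 and Col4a6 moved with them. Nid1 and Nid2, which link laminin to type IV collagen, changed by -0.48 (SE 0.19, adjusted p = 0.036) and -0.78 (SE 0.23, adjusted p = 0.00802), and Hspg2, the gene of perlecan, by -0.13 (SE 0.17, adjusted p = 0.544). Between diets 4 partners were called lower in control IWAT, 28.6% beside 7.53% of all genes. In tumor-associated IWAT 8 were lower, 57.1% beside 22.4% of all genes. None was called higher in either. Without the control pad of obese mouse 1 edgeR called none lower in control IWAT, 4 having an unadjusted p under 0.05.

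Of 18 fibril organisers, 4 were called higher and none lower in lean tumor-associated against control IWAT, and 6 higher and 3 lower in obese mice. In lean mice this is 22.2% of the list higher, beside 3.27% of all genes. In obese mice it is 33.3% and 16.7% of the list, near or under the 26.8% and 27.7% of all genes. The 4 lean ones, Bgn (biglycan), Fn1 (fibronectin), Ecm1 and Fbln2, were higher in obese mice too, Fbln2 by 1.46 (SE 0.23, adjusted p = 0.000888) in lean and 1.03 (SE 0.21, adjusted p = 0.000498) in obese mice. Tnc, tenascin C, rose in obese mice by 2.44 (SE 0.37, adjusted p = 4.24e-05), whereas Dcn (decorin), Sparc and Prelp were the 3 that were lower, at -0.89 (SE 0.33, adjusted p = 0.028), -0.60 (SE 0.23, adjusted p = 0.0331) and -0.98 (SE 0.33, adjusted p = 0.0158). The tumor-associated pad of obese mouse 4 had 4018.4 CPM of the organisers in sum and the other 5 had 10033.3 to 14898.5 CPM; without it these log2 fold changes were -0.69, -0.45 and -0.79 and kept their calls, whereas without the pad of obese mouse 0 Dcn (adjusted p = 0.0613) and Sparc (adjusted p = 0.0572) lost theirs. Between diets 7 organisers were called higher and none lower in control IWAT, 38.9% higher beside 9.54% of all genes. In tumor-associated IWAT 3 were higher and 5 lower, 16.7% and 27.8% beside 24.7% and 22.4% of all genes. Of 11 tested collagen receptors, 1 was called higher in lean mice, Lair1, the inhibitory receptor of immune cells (1.23, SE 0.26, adjusted p = 0.00874), and 2 higher and 4 lower in obese mice, or 18.2% and 36.4% beside 26.8% and 27.7% of all genes, and 1 higher without the tumor-associated pad of obese mouse 0 or 4 or the control pad of obese mouse 1. Of these, Lair1 (1.52, SE 0.23, adjusted p = 4.07e-05) and Itgb1 (0.29, SE 0.10, adjusted p = 0.0202) rose, and Itga1 (-0.97, SE 0.20, adjusted p = 0.000478), Ddr1 (-0.66, SE 0.15, adjusted p = 0.00138), Mrc2 (-0.79, SE 0.27, adjusted p = 0.0169) and Gpr56 (-0.71, SE 0.21, adjusted p = 0.00849) fell. Between diets 4 receptors were called higher and none lower in control IWAT, 36.4% higher beside 9.54% of all genes. In tumor-associated IWAT 3 were higher and 5 lower, 27.3% and 45.5% beside 24.7% and 22.4% of all genes. The 8 macrophage markers moved in the same direction as Lair1. In lean mice 6 were called higher and in obese mice 7, or 75% and 87.5% beside 3.27% and 26.8% of all genes. Their part in the level of Lair1 was not tested.

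Markers of the cells that make or border collagen were counted as well. Of 10 fibroblast markers, 3 were called higher and none lower in lean tumor-associated against control IWAT, or 30% higher beside 3.27% of all genes. In obese mice 3 were higher and 1 lower, 30% and 10% of the list, near or under the 26.8% and 27.7% of all genes. The median log2 fold change of the 10 was 0.54 in lean and -0.12 in obese mice. Their sum was 1600 to 2660 CPM in lean control and 3060 to 4610 CPM in lean tumor-associated IWAT. In obese control IWAT it was 1960 to 2630 CPM. In obese tumor-associated IWAT it was 897 CPM in mouse 4 and 2880.7 to 4614.8 CPM in the other 5. Between diets none of the 10 markers was called in control IWAT. In tumor-associated IWAT 3 were lower, 30% beside 22.4% of all genes. The 8 markers of activated fibroblasts include Tnc and Postn of the organiser list. Of these 8, 1 was called higher in lean and 4 in obese mice with a tumor, none lower. This was 12.5% and 50% of the list higher, beside 3.27% and 26.8% of all genes. The other marker lists changed mostly in obese tumor-associated against control IWAT. There 5 of 6 mural cell and 3 of 5 Schwann cell markers were called lower, 83.3% and 60% beside 27.7% of all genes. In the same comparison 5 of 5 proliferation markers were called higher, beside 26.8% of all genes. All of the proliferation markers were higher in obese mice among the tumor-associated pads too, beside 24.7% of all genes. Of the 3 tested skeletal muscle markers, 3 were higher in control IWAT of obese mice than of lean mice, beside 9.54% of all genes. In obese tumor-associated against control IWAT 1 was lower, 33.3% beside 27.7% of all genes. The muscle marker sum was 2246 CPM in the control pad of obese mouse 1 and 13.7 to 40.5 CPM in the other 5, and without that library 1 of 2 tested muscle markers was called higher and none lower. The part of these cells in the collagen levels was not tested.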

How the data were processed

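Inguinal white adipose tissue of 11 mice was measured by RNA-seq after depletion of ribosomal RNA, 22 libraries in all. The deposited values are raw read counts per gene: the authors trimmed reads with prinseq and, per the submitters' processing notes, aligned them with STAR 2.4.0f to mm10 and counted with HTSeq; how strand was treated and which gene annotation was used is not given in the sources used here. The study's own test was DESeq2. The 5 HTSeq summary lines were left out, and 0 sample columns were unused. Gene counts were 5759775 to 8598108 per library (median 6953881.5), which sets the counting precision of low genes.

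Counts were filtered (filterByExpr), TMM-normalized and tested in R 4.3.3 with edgeR 4.0.16, by the quasi-likelihood test in 1 fit of the 4 groups, without the mouse, adjusted by Benjamini-Hochberg over 14458 genes at 0.05. The standard error (SE) given with a log2 fold change is its absolute value divided by the square root of edgeR's F statistic. Level plots of changes within a mouse used log2 CPM with a prior count of 2. Alternatives were DESeq2 1.42.0, upper-quartile scaling, filters, each pair of groups fitted alone, a block for the mouse (also limma 3.58.1 voom), removal of GC and length trends, and leaving out each library or mouse. Pads of a mouse come from the same animal: their deviations from the group means correlated at a median of 0.508 in lean (5 of 5 above 0.1) and 0.168 in obese mice (4 of 6 above 0.1), against -0.124 and -0.0719 for pads of different mice. No 2 libraries of a group agreed within sampling noise (smallest chi-square per degree of freedom 5.694).

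The members and lists were chosen with earlier results of these data known. Chains were named if they were the main chains of types I, III, IV, V, VI, XII, XIV, XV and XVIII, had the largest called changes of a class, or had a called difference of the tumor changes; further chains were named after their values were seen. Exons of 39 of the 44 chains overlap no other gene of the table. Positions are from GENCODE M21 and start regions from RefSeq GRCm38.p6. Protein sequence features are not analysed here.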

Additional observations from a re-analysis of the deposited data

Results flagged for a closer look

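In 96 group values of the 24 named chains, 6 held 1 library far from the rest of its group; chance flags about 1 in 20 groups, or 4.8 here. The tumor-associated pad of obese mouse 0 stood out for Col12a1, at 2203 CPM beside 371.9 to 856.9 CPM in the other 5, and for Col11a1, at 43.63 CPM beside 1.94 to 7.847 CPM. Col9a2 stood at 14.38 CPM in the control pad of obese mouse 2 beside 1.724 to 4.297 CPM. Col6a2 was lowest in the control pad of lean mouse 2, at 213.9 CPM beside 306.4 to 343.4 CPM, and Col25a1 highest in that of lean mouse 0, at 6.619 CPM beside 2.816 to 3.828 CPM. Col11a1 was highest in the tumor-associated pad of lean mouse 6, at 10.17 CPM beside 5.252 to 6.528 CPM.

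The tumor change differed between the diets, in edgeR's test of the difference itself, for Col8a1, by 2.07 on the log2 scale (obese minus lean), and for Col23a1, by -1.56. This is 1 chain higher and 1 lower of 38 tested, near the 2.58% and 2.34% of all genes. Both calls were lost without a filter on low counts (adjusted p = 0.0531 and 0.0521). They were also lost without the tumor-associated pad of obese mouse 0 (adjusted p = 0.0699 for each).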

How the results depend on the processing

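No result changed its direction. Called chains moved by over 1.5 times as follows. Higher in lean tumor-associated IWAT (7): 3 with upper-quartile scaling, 3 without a filter, 11 with the groups compared alone, 2 with the mouse as a replicate block and 4 with GC and length trends removed as well. Lower in obese tumor-associated IWAT (12): 6 with a minimum of 10 counts and 6 with the groups alone. Lower in obese control IWAT (5): 2 with a minimum of 10 counts, 10 with the groups alone and 8 with the block in limma voom. Lower in obese tumor-associated against lean tumor-associated IWAT (14): 7 with a minimum of 10 counts. The difference of the tumor changes, higher (1): 2 with DESeq2 and 0 without a filter; lower (1): 5 with DESeq2, 0 without a filter, 2 with the block, 3 with the block in limma voom and 3 with the trends and the block. The stricter filter tests fewer chains; otherwise the cause was not tested.

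Over the 33 fits without a library or a mouse the counts ran from 0 to 10 higher and 0 to 0 lower in lean mice with a tumor, 9 to 16 and 9 to 15 in obese mice with a tumor, 2 to 9 and 3 to 9 between control groups, 4 to 6 and 13 to 15 between tumor-associated groups, and 0 to 3 and 0 to 11 for the difference of the tumor changes. Under the other settings 329 values stayed the same, taken over calls of single named chains and counts by class or per length. There 36 calls of named chains were lost, and 2 counts of basement membrane chains moved when types XV and XVIII were added. For single named chains, 1439 values kept their call and 244 lost it in the 33 fits. Of the calls of named chains in the fit of the 4 groups, the block removed none other than those given with it. Chains that gained a call with the block are not named here. With upper-quartile scaling the share of higher calls over all genes in lean mice was 65.7% in place of 78.2%. Counts of a few reads, as for Col9a1 and Col25a1, limit the fold changes of rare chains.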
